A study of Mus musculus with 8 samples.

Results

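Small leucine-rich proteoglycans are secreted matrix proteins whose arched, leucine-rich core binds collagen fibrils, and several of them also bind growth factors of the TGF-beta family. Most carry glycosaminoglycan chains: decorin and biglycan carry chondroitin or dermatan sulfate, while lumican and fibromodulin carry keratan sulfate. Fibroblasts and other connective tissue cells are their best known source. The genes examined here were the 8 members Ogn (osteoglycin, also called mimecan), Aspn (asporin), Omd (osteomodulin), Dcn (decorin), Bgn (biglycan), Lum (lumican), Fmod (fibromodulin) and Prelp (a heparin-binding member of basement membranes), out of 55421 genes in the count table. The set was chosen from the rise of Ogn, which was over 100-fold with NRRA in both genotypes, and the 7 paralogs were taken by name. The changes of Ogn with NRRA are therefore given as a description, with no test.

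The samples were SSC cultures, which are primary spermatogonia of the C57BL/6XDBA/2 background grown from the testes of neonatal mice with N2, bFGF and GDNF. All of them stood on irradiated fibroblasts from outbred mouse embryos (MEF), and these feeders carry neither deletion. Cultures were Stra8KO or Spo11KO, from mice deficient for a retinoic acid target needed for meiosis or for the enzyme that makes meiotic DNA breaks, and received vehicle (Veh) or NRRA, a nutrient restriction medium with retinoic acid. The paper made the restriction medium by diluting the SSC medium with a balanced salt solution, so growth factors and serum were diluted with the nutrients. There were 2 libraries in each of the 4 groups. No wild-type culture was analysed here, and none with restriction alone or retinoic acid alone. The parts of NRRA therefore cannot be told apart.

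Library totals ranged from 20960794 to 27038868 counts, and the common biological coefficient of variation was 3.39%. Counts of Stra8 were 2 and 0 (Veh) and 169 and 170 (NRRA) in Stra8KO, against 28 and 12 (Veh) and 12604 and 16191 (NRRA) in the libraries labelled Spo11KO. Spo11 was not lower in the cultures labelled Spo11KO, with 72 and 75 counts in Veh and 148 and 127 in NRRA, against 32, 31, 68 and 66 in the Stra8KO libraries in the same order. Transcript level therefore does not check that label. All 16 fibroblast markers were higher in Stra8KO than in the libraries labelled Spo11KO in both media (median log2 difference 1.02 in Veh and 0.98 in NRRA), and all 8 germ cell markers were lower (median -0.98 in both). Of all tested genes, 31.6% were higher and 30.7% lower in Veh, and 35.0% and 28.9% in NRRA. In such bulk libraries, fewer cells of a type and less RNA per cell cannot be told apart.

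Ogn, Omd and Aspn lie side by side on chromosome 13 and were the members nearest to each other in the genome. In GRCm38 with the GENCODE M21 annotation, Aspn spans 49544443 to 49567565, Omd 49582462 to 49592822 and Ogn 49608046 to 49624501, all on the plus strand. Ecm2, a further gene of the leucine-rich family, starts the row at 49504810, and the gaps between neighbours were 11.7, 14.9 and 15.2 kb. All 4 genes sit inside Cenpp, a centromere protein gene on the minus strand. The exons of Ogn and Omd shared 0 bases with exons of Cenpp, and those of Aspn shared 7. Dcn (97479609 to 97518143) and Lum (97565128 to 97572703) are neighbours on chromosome 10, Prelp (133910304 to 133921414) and Fmod (134037254 to 134048277) on chromosome 1, and Bgn (73483602 to 73495933) is on the X chromosome. Exons of Prelp shared 350 bases with an antisense gene, Gm15851, and the strand setting of the counting is not given in the sources used here, so its level is uncertain to that extent.

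The promoter windows of the chromosome 13 members are shown because these genes stand in one row and differed in size of response. Each window runs from 250 bases before to 50 bases after the RefSeq start (GRCm38.p6, plus strand). Capitals mark matches, on either strand, to AGGTCA (the core element of retinoic acid receptors), TATAAA (the TATA box), TGACTCA (AP-1), GGAATG (TEAD), TGTTTAC (forkhead), TTGCATCA (an ATF4 composite site) or TGACGTCA (CRE).
Ogn, chr13:49607765-49608064: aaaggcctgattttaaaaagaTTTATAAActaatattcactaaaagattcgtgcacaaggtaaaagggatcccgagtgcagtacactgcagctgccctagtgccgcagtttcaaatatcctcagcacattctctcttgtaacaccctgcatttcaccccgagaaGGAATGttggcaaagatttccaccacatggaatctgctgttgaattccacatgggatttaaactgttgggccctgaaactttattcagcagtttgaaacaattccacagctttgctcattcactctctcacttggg
Aspn, chr13:49544193-49544492: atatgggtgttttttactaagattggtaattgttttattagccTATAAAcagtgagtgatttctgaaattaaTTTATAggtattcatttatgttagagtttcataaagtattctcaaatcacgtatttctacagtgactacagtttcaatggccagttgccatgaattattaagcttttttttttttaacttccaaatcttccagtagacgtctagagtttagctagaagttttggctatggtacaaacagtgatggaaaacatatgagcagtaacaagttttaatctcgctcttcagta
Omd, chr13:49582212-49582511: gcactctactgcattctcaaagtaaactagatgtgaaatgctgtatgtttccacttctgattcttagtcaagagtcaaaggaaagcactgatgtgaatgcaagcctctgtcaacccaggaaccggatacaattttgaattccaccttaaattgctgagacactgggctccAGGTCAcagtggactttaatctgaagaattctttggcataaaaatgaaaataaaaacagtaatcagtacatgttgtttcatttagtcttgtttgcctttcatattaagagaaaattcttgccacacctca

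The Ogn window held TATAAA on both strands, overlapping each other at -229 and -227, and GGAATG at -86, in bases from the RefSeq start. The Aspn window held TATAAA once on each strand, at -207 and -178, and the Omd window held AGGTCA at -80. Whether any TATAAA match at these positions acts as a TATA box was not tested. Windows were given for 6 of the 8 members, and those of Fmod, Prelp and Bgn held none of the 7 motifs. Of all 32851 windows of this length, 16.3% held AGGTCA, 13.6% TATAAA, 5.20% TGACTCA, 14.7% GGAATG, 3.65% TGTTTAC, 0.895% TTGCATCA and 1.79% TGACGTCA. These matches describe letters and not binding.

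Levels between genes were compared as CPM per kb, which is counts per 1e+06 library counts after TMM scaling, divided by exon length. In Stra8KO Veh the order was Bgn (mean 558), Dcn (275), Lum (177), Prelp (9.15), Aspn (0.693), Ogn (0.671), Fmod (0.625) and Omd (0.148). The libraries of Ogn overlapped those of Aspn and of Fmod there, so these neighbours did not differ beyond their spread. In Spo11KO Veh the order was the same, with no overlap between neighbours, from Bgn at 260 down to Aspn at 1.01, Ogn at 0.409, Fmod at 0.272 and Omd at 0.172. Under NRRA Ogn moved from place 6 to place 3 of 8 in both genotypes, above Lum. Ogn then stood at 126 and Lum at 107 CPM per kb in Stra8KO, and at 61.8 and 57.5 in Spo11KO, with no overlap between libraries. Among 20558 tested genes with a length, Ogn went from place 15710 by level with Veh to place 289 with NRRA in Stra8KO, and from 17077 to 528 in the libraries labelled Spo11KO.

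**Figure D1:**
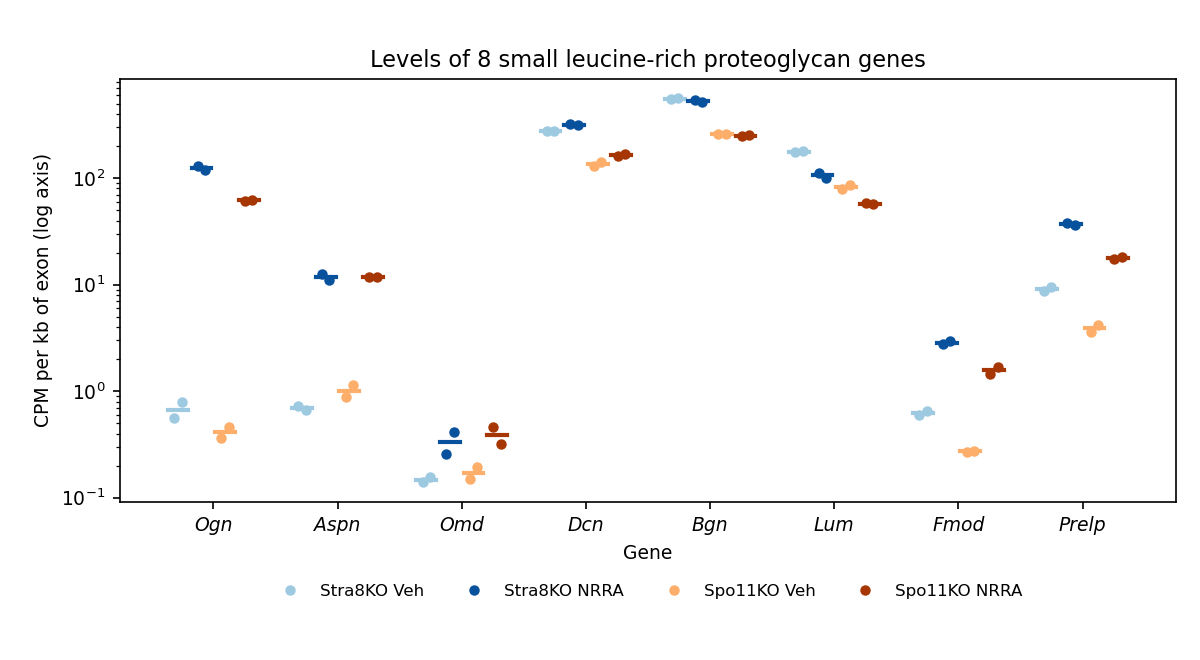
Level of each member in CPM per kb of exon on a log axis, with 1 point per library, bars at the group mean, and colours for the 4 groups. Ogn lies below 1 in all 4 Veh libraries and between 60.6 and 131 in the NRRA libraries, while Bgn and Dcn stay high throughout.

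Ogn encodes osteoglycin, a short core protein first described from bone. In Stra8KO it went from 32 and 40 counts with Veh to 6991 and 6664 with NRRA, and in the libraries labelled Spo11KO from 22 and 27 to 4031 and 4730. Mean levels were 1.72 ± 0.412 and 323 ± 21.1 CPM in Stra8KO and 1.05 ± 0.176 and 158 ± 4.13 CPM in Spo11KO (SD, n = 2), in Veh and NRRA. Every NRRA library was far above every Veh library. The fitted change was 188-fold in Stra8KO (log2 7.56) and 150-fold in Spo11KO (log2 7.23), place 3 of the 20588 tested genes in each. Leaving out 1 library at a time gave log2 changes of 7.32 to 7.81 in Stra8KO and 7.07 to 7.40 in Spo11KO. Only Ogn, Stra8 and Sprr3 passed 100-fold in both genotypes, out of 9 genes in Stra8KO and 5 in Spo11KO. The member next below that limit was Aspn, at 17.0-fold and 11.6-fold.

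Omd passed the filter on low counts through its NRRA libraries and is left out of the count of changed paralogs, a choice made after seeing the data. Of the other 6 paralogs, 4 were higher and 1 lower with NRRA in each genotype. The 4 include Dcn, which rose 1.15-fold in Stra8KO and 1.22-fold in Spo11KO, below the fold minimum of 2 used as an alternative. Calls were made below an adjusted p of 0.05. Of all tested genes, 21.6% were called higher and 20.2% lower in Stra8KO, and 24.5% and 25.5% in Spo11KO. The median log2 change of these 6 was 1.12 in Stra8KO and 1.24 in Spo11KO, which is the midpoint between Dcn and Prelp, beside 0.013 over all tested genes in each. The 2 genotypes have no library in common in these comparisons, but they share 1 model, its scaling, its filter and its estimate of the spread.

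Aspn, a decorin relative with a run of aspartates and no chain, rose the most among the paralogs. In Stra8KO it went from 1.70 and 1.56 CPM with Veh to 29.8 and 26.1 with NRRA, and in Spo11KO from 2.06 and 2.70 to 27.5 in both libraries. The NRRA libraries were all above the Veh libraries. How many of all tested genes separate in this way was not counted, so non-overlap is a description here and for the members below. The log2 change was 4.09 in Stra8KO (SE 0.143, adjusted p = 2.78e-29) and 3.53 in Spo11KO (SE 0.127, adjusted p = 9.07e-29). Per length, Aspn stood at 129% and 84.5% of Ogn with Veh and at 9.62% and 9.24% with NRRA in Stra8KO. In Spo11KO the same share went from 243% and 250% to 19.3% and 18.6%.

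Prelp, which links basement membranes to connective tissue, rose to a similar extent in both genotypes. Its Stra8KO libraries went from 31.7 and 34.4 CPM with Veh to 137 and 133 with NRRA, and its Spo11KO libraries from 13.0 and 15.1 to 63.5 and 65.1. The log2 change was 2.03 (SE 0.0592, adjusted p = 1.66e-32) and 2.20 (SE 0.0694, adjusted p = 4.87e-31). Fmod, a regulator of collagen fibril assembly, went from 1.97 and 2.17 to 9.07 and 9.79 CPM in Stra8KO and from 0.884 and 0.914 to 4.78 and 5.60 CPM in Spo11KO. Its log2 change was 2.19 (SE 0.182, adjusted p = 1.13e-14) and 2.53 (SE 0.224, adjusted p = 8.18e-14). In neither gene did Veh and NRRA libraries of a genotype overlap.

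Dcn, the member best known for binding collagen and TGF-beta, rose slightly. In Stra8KO it went from 1604 and 1611 CPM with Veh to 1876 and 1827 with NRRA, and in Spo11KO from 754 and 831 to 940 and 993, with no overlap within a genotype. The log2 change was 0.20 (SE 0.0368, adjusted p = 9.52e-06) and 0.29 (SE 0.0372, adjusted p = 7.46e-09).

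Lum, which spaces collagen fibrils and is a neighbour of Dcn, fell. In Stra8KO it went from 431 and 436 CPM with Veh to 275 and 248 with NRRA, and in Spo11KO from 193 and 210 to 142 and 140. The log2 change was -0.73 (SE 0.0421, adjusted p = 7.07e-20) and -0.52 (SE 0.0438, adjusted p = 3.72e-14). The groups did not overlap within either genotype. By their fitted changes, these adjacent genes of the family moved in opposite directions.

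Bgn, the highest member and closest in structure to Dcn, did not pass the test. In Stra8KO its levels were 3380 and 3422 CPM with Veh and 3279 and 3186 with NRRA, and in Spo11KO 1571 and 1595 against 1503 and 1549. The log2 difference was -0.073 (SE 0.0320, adjusted p = 0.0619) and -0.053 (SE 0.0321, adjusted p = 0.172). In Stra8KO Bgn was called lower with total counts (adjusted p = 0.0370), DESeq2 size factors (0.0123), fibroblast marker scaling (0.00804), the DESeq2 test (0.00846) and the 4 Stra8KO libraries alone (0.0118), and without Spo11KO Veh replicate 2 (0.0241), Spo11KO NRRA replicate 1 (0.0194) or Spo11KO NRRA replicate 2 (0.0196). In Spo11KO it was called lower with fibroblast marker scaling (0.00785) and without Spo11KO NRRA replicate 2 (0.0437).

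Omd, a keratan sulfate member of bone, was near the limit of detection, with 7 counts in both Stra8KO libraries with Veh and 12 and 20 with NRRA, and with 8 and 10 against 27 and 21 in Spo11KO. Only through its NRRA libraries did it pass the filter on low counts, so its log2 difference, 1.17 in Stra8KO (SE 0.520) and 1.17 in Spo11KO (SE 0.464), is given with no test.

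**Figure D2:**
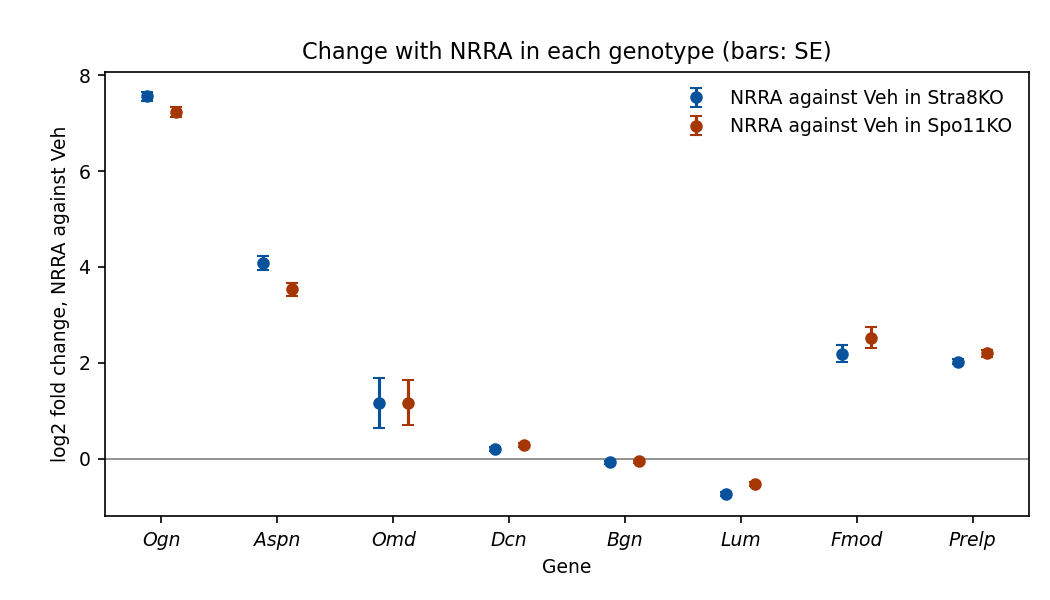
Fitted log2 fold change of NRRA against Veh for each member, with Stra8KO in blue, Spo11KO in brown and bars of 1 SE. Ogn stands at 7.56 and 7.23, Aspn at 4.09 and 3.53, and Lum is below 0 in both genotypes. The bars of Ogn are narrower than its range on leaving out 1 library, 7.32 to 7.81 in Stra8KO and 7.07 to 7.40 in Spo11KO.

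The makeup of the family per exon length shifted with NRRA. Ogn took 0.0657% of the summed CPM per kb of the 8 genes with Veh and 11.1% with NRRA in Stra8KO, and 0.0845% and 10.9% in the libraries labelled Spo11KO. The share of Lum went from 17.3% to 9.42% and from 17.0% to 10.2%, and that of Bgn from 54.6% to 46.8% and from 53.7% to 44.2%. Dcn kept between 27.0% and 29.2% in the means of the 4 groups. The sum itself went from 1016 and 1027 to 1156 and 1108 CPM per kb in Stra8KO, and from 471 and 496 to 557 and 576 in Spo11KO.

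**Figure D3:**
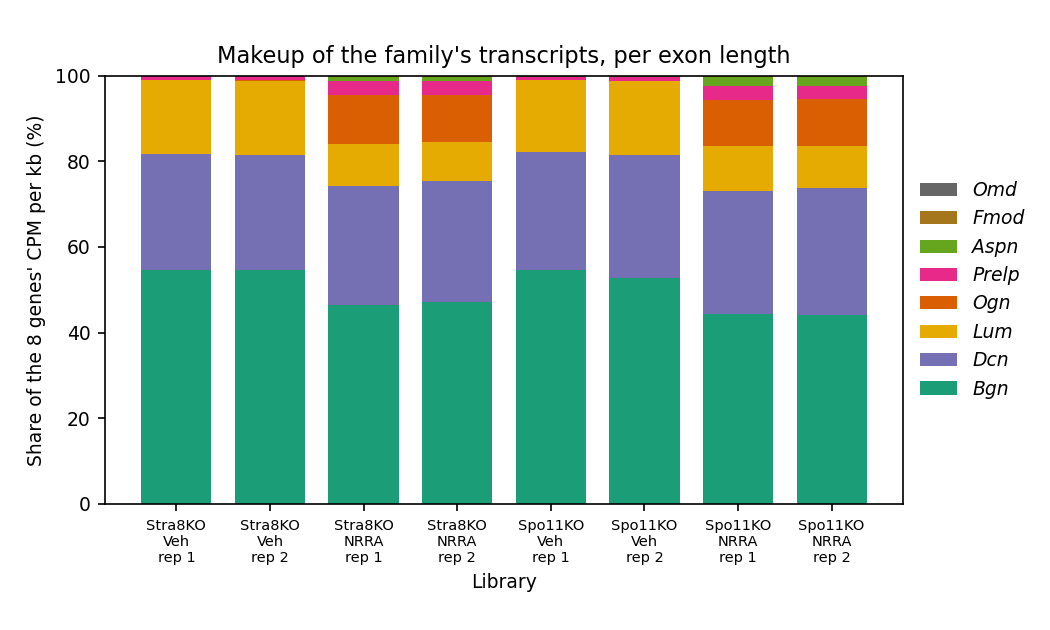
Share of each member in the summed CPM per kb of the 8 genes, in %, with 1 bar per library. Ogn is hardly visible in the Veh bars and takes 10.8% to 11.4% of the NRRA bars.

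Along chromosome 13, changes with NRRA were uneven. Ecm2, an extracellular matrix gene, had a log2 change of 1.52 in Stra8KO (adjusted p = 0.00458) and 0.42 in Spo11KO (adjusted p = 0.309), from at most 42 counts. Cenpp, which encloses the 4 genes, rose by 1.11 (adjusted p = 2.1e-07) and 0.61 (adjusted p = 4.44e-05). Nol8 (-0.18 and -0.21), Ippk (-0.29 and -0.98) and, in Spo11KO, Iars (-0.53) fell, and Iars differed by -0.024 in Stra8KO (adjusted p = 0.672).

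**Figure D4:**
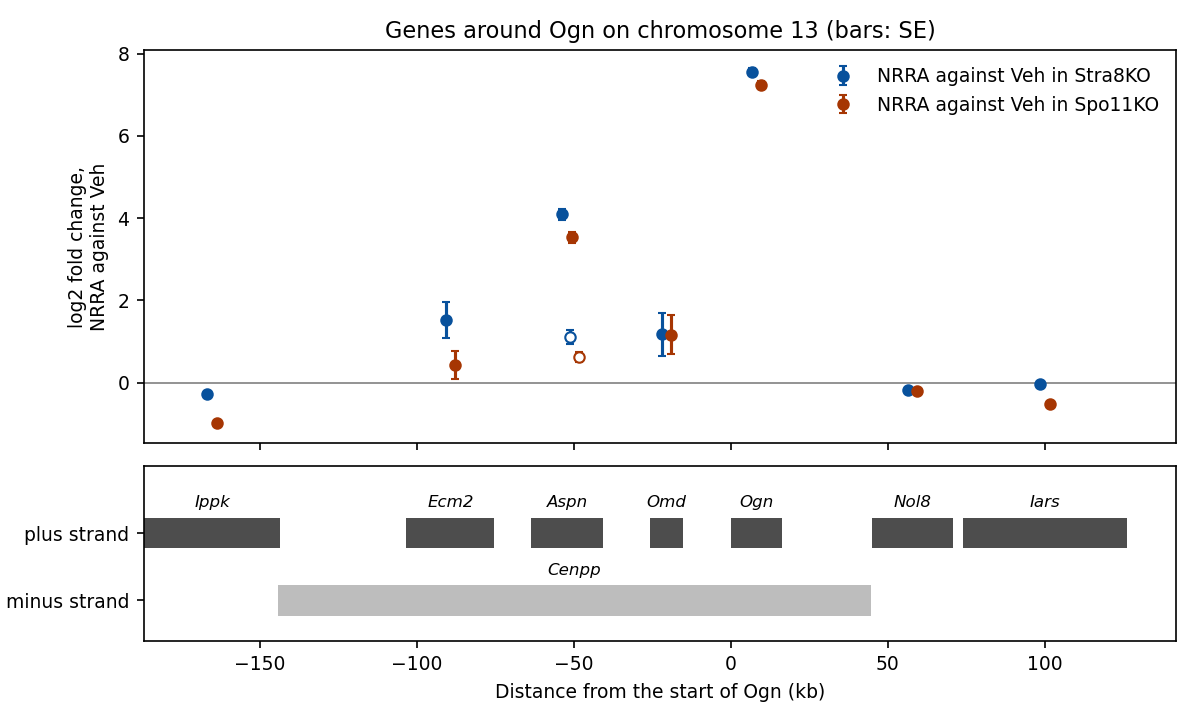
Above, log2 fold change with NRRA of the genes around Ogn, with bars of 1 SE and Cenpp as open points, and below, the genes on each strand, both against distance from the start of Ogn in kb. The changes of Ogn and Aspn exceed those of their neighbours.

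Of the 10 further genes of the leucine-rich family listed, 8 were tested. Their counts stand beside 21.6% higher and 20.2% lower of all tested genes in Stra8KO, and 24.5% and 25.5% in Spo11KO. In Stra8KO 3 were higher by edgeR, which were Ecm2, Podn (1.44) and Tsku (0.92), and 0 were lower, also at an unadjusted p under 0.05 (median log2 0.42). In Spo11KO Podn (0.95) and Tsku (0.40) were higher and Chadl was lower (-0.27), with a median of 0.41. Podn encodes podocan, and Tsku encodes tsukushi, a secreted inhibitor of several growth factors. Kera and Epyc, the cornea and cartilage members next to Lum, had at most 8 and 6 counts in any library and were not tested.

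The genes that build the chains moved in both directions, as did tested genes in general. Among all tested genes, 21.6% were higher and 20.2% lower in Stra8KO, and 24.5% and 25.5% in Spo11KO. Of 16 genes for chondroitin and dermatan sulfate, 5 were higher and 6 lower in Stra8KO and 7 and 4 in Spo11KO (medians -0.038 and 0.055). These counts include Chst13, a sulfotransferase gene that passed the filter only through its NRRA libraries. Any call of Chst13 within them therefore carries no weight, and the gene is described with no test. It had 3 and 4 counts with Veh and 39 and 37 with NRRA in Stra8KO, and 2 and 8 against 27 in both libraries in Spo11KO. Chst3, another sulfotransferase gene, rose by 1.06 in Spo11KO (adjusted p = 0.00525) and differed by -0.52 in Stra8KO (adjusted p = 0.305). Of 7 tested keratan sulfate genes, 1 was higher and 3 lower in Stra8KO and 2 and 4 in Spo11KO (medians -0.44 and -0.56). In both genotypes, in the order Stra8KO and Spo11KO, Chst2 (-1.30 and -1.01), Chst1 (-1.07 and -0.82) and Chst5 (-0.79 and -1.22) fell and B3gnt7 rose (1.95 and 0.42). Of the 7 linker genes, 3 were lower and 0 higher by edgeR in Stra8KO (0 higher also at an unadjusted p under 0.05), and 1 higher and 2 lower in Spo11KO, with medians of -0.072 and -0.14.

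Among 18 binding partners and processing enzymes, 10 were higher and 6 lower in Stra8KO and 11 and 7 in Spo11KO, with medians of 0.64 and 0.45. The fibril collagen genes Col1a1 (1.46 and 1.32), Col1a2 (1.39 and 1.35), Col3a1 (1.78 and 1.68) and Col5a2 (1.40 and 1.32) rose. Of the collagen VI genes in Stra8KO, Col6a1 (1.01) and Col6a2 (1.00) rose and Col6a3 (-0.85) fell. Their means in Spo11KO went from 267 to 528, 196 to 380 and 451 to 287 CPM. Tgfb2 rose (2.78 and 2.76) while Tgfb1 fell (-1.12 and -1.22), both being TGF-beta ligands. Mean Tgfb3, the other ligand listed, went from 32.3 to 59.2 CPM in Stra8KO and from 16.5 to 32.8 in Spo11KO. Tll2, a protease of the tolloid group, fell (-1.43 and -1.86). Of 16 other proteoglycan genes, 8 were higher and 4 lower in Stra8KO and 9 and 5 in Spo11KO, with medians of 0.20 and 0.34. Beside both lists, 21.6% of all tested genes were higher and 20.2% lower in Stra8KO, and 24.5% and 25.5% in Spo11KO. Among them, Gpc6 (2.10 and 1.84) and Gpc3 (1.92 and 1.07) rose, and Cspg4 (-1.41 and -0.99) and Sdc4 (-0.45 and -1.87) fell. The glypicans moved both ways. Mean Gpc4 went from 150 to 316 CPM in Stra8KO and from 90.0 to 164 in Spo11KO, but mean Gpc1 from 351 to 190 and from 158 to 92.2.

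Between genotypes, 6 of the 8 members were higher and 1 lower in Stra8KO than in the libraries labelled Spo11KO in Veh, where 31.6% of all tested genes were higher and 30.7% lower. In NRRA 6 were higher and 0 lower by edgeR, beside 35.0% and 28.9% of all genes, and the DESeq2 test and an unadjusted p under 0.05 also gave 0 lower. Dcn (log2 1.02 in Veh and 0.94 in NRRA), Lum (1.10 and 0.89), Bgn (1.10 and 1.08), Prelp (1.24 and 1.07) and Fmod (1.19 and 0.86) were higher in both media, with adjusted p of at most 2.13e-04. Such p-values measure spread between libraries of a group, so genotype cannot be told apart from other differences between the cultures. Ogn was higher by 1.02 in NRRA (SE 0.0449, adjusted p = 2.52e-25). In Veh it was higher by 0.70 (SE 0.254, adjusted p = 0.0151), a call lost with only the 4 Veh libraries (adjusted p = 0.0536), without Stra8KO Veh replicate 2 (0.258) and without Spo11KO Veh replicate 1 (0.146). Aspn was lower in Veh (-0.54, SE 0.227, adjusted p = 0.0363) and differed by 0.021 in NRRA (SE 0.0842, adjusted p = 0.840). The Veh call of Aspn was lost without Stra8KO Veh replicate 1, Stra8KO Veh replicate 2 or Spo11KO Veh replicate 2, when 0 members were called lower. Omd differed by -0.21 in both media (SE 0.580 in Veh and 0.417 in NRRA), given with no test. It is among the 8 members counted but was not called.

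Fibroblast markers moved with these genotype differences. The median log2 CPM of the 16 markers was 9.83 to 9.89 in the Stra8KO libraries and 8.84 to 8.93 in those labelled Spo11KO. Set against that median within each library, the difference between genotypes was 0.026 in Veh and -0.040 in NRRA for Dcn, 0.11 and -0.087 for Lum, 0.11 and 0.10 for Bgn, 0.24 and 0.089 for Prelp, 0.16 and -0.12 for Fmod, and -0.32 and 0.045 for Ogn. Most of the genotype difference of these 6 genes was thus absent on that scale. Aspn (-1.52 and -0.96) and Omd (-1.18 and -1.20) were lower in Stra8KO on it. Scaling the libraries to those markers put the median of all tested genes at -0.99 in Veh and -0.91 in NRRA. Being lower on this scale is thus not particular to Aspn and Omd, and Aspn in NRRA lay close to that median. Omd had few counts and is given with no test.

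**Figure D5:**
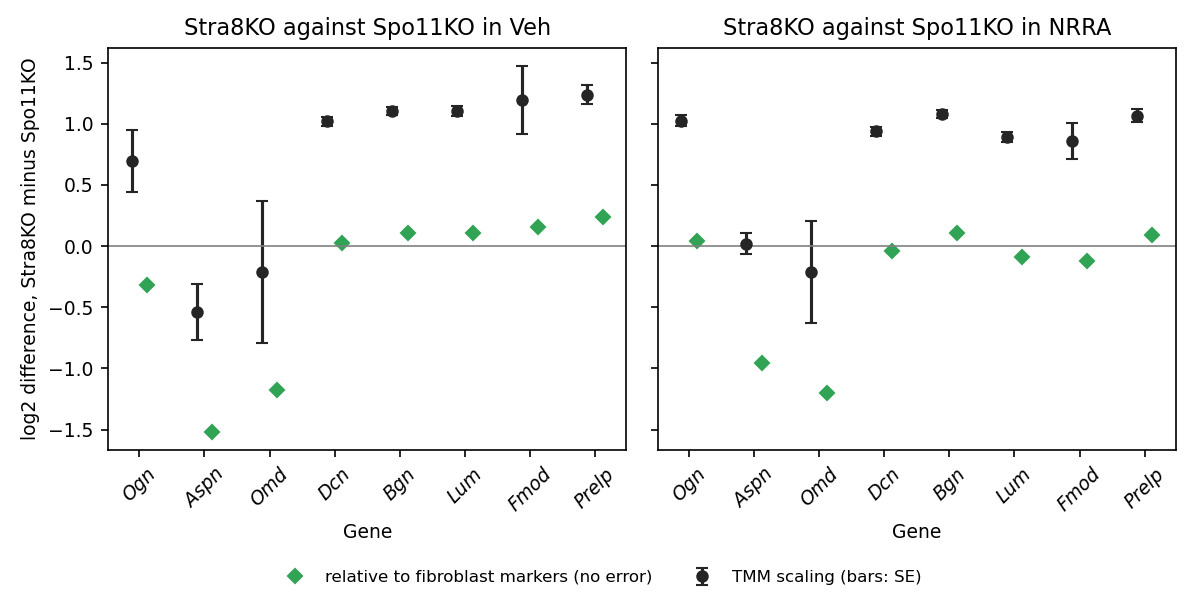
Log2 difference of Stra8KO minus Spo11KO for each member in Veh (left) and NRRA (right), with black points for TMM scaling and bars of 1 SE, and green diamonds for the value relative to fibroblast markers. Ogn in NRRA goes from 1.02 to 0.045 between the scales and Aspn from 0.021 to -0.96. With libraries scaled to those markers, the median of all tested genes in NRRA was -0.91.

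The median log2 CPM of the markers moved little with NRRA. It went from 9.83 and 9.86 to 9.89 and 9.88 in Stra8KO, and from 8.84 and 8.86 to 8.88 and 8.93 in Spo11KO. Subtracting it could change little, and the changes with NRRA were of nearly the same size on the fibroblast scale. They were 7.49 in Stra8KO and 7.12 in Spo11KO for Ogn, 4.02 and 3.46 for Aspn, 1.99 and 2.14 for Prelp, 2.12 and 2.40 for Fmod, and -0.77 and -0.58 for Lum. The fibroblast list itself had 7 genes higher and 7 lower with NRRA in Stra8KO and 8 and 8 in Spo11KO (medians 0.071 and -0.013). Single markers ranged from -2.18 to 1.78 in Stra8KO and from -1.66 to 1.68 in Spo11KO. Over all tested genes, 21.6% were higher and 20.2% lower in Stra8KO, and 24.5% and 25.5% in Spo11KO. Of 6 smooth muscle markers, 5 rose in each genotype (medians 1.66 and 1.50), with Acta2, the smooth muscle actin gene, at 4.24 and 4.06 and Tagln at 2.12 and 1.98. Summed smooth muscle markers were 57.2 to 112 CPM in the Veh libraries and 509 to 1091 in the NRRA libraries, and none of the 6 was at 0. Of 8 bone and cartilage markers 4 were tested, and 2 of these, Alpl and Acan, rose in each genotype. Sums of the list were 16.4 to 26.4 CPM in Veh and 34.8 to 46.5 in NRRA. Mean Alpl went from 3.15 to 20.3 CPM in Stra8KO and from 10.3 to 18.4 in Spo11KO, and Acan from 3.96 to 6.25 and from 8.93 to 19.9. Col2a1 was at 8.30 and 7.82 in Stra8KO and at 5.60 and 6.03 in Spo11KO. Sp7, Bglap, Ibsp, Dmp1 and Matn1 had group means of at most 0.688 CPM. The part of these markers in the changes of the family was not tested.

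The response to NRRA was compared between genotypes by the interaction, the NRRA change in Stra8KO minus that in Spo11KO. Lum fell further in Stra8KO (-0.21, SE 0.0607, adjusted p = 0.00682), and 0 paralogs were higher by edgeR, against 1 at an unadjusted p under 0.05 and 0 by the DESeq2 test. Of all tested genes, 14.8% were called higher and 10.3% lower. The Lum call was lost without Stra8KO NRRA replicate 2 (-0.14, adjusted p = 0.122) and without Spo11KO Veh replicate 1 (-0.15, adjusted p = 0.0671). Aspn differed by 0.56 (SE 0.242, adjusted p = 0.0874), Fmod by -0.34 (SE 0.317, adjusted p = 0.503), Prelp by -0.17 (SE 0.0948, adjusted p = 0.212) and Dcn by -0.082 (SE 0.0523, adjusted p = 0.279). For Ogn the value was 0.33 (SE 0.265), given with no test. Tsku, outside the 8 members, rose more in Stra8KO (0.52, adjusted p = 2.44e-07).

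The genes with the profile nearest to that of Ogn over the 8 libraries were Sprr3, Ccl20, Rarb, Kit and Ptn, out of 12968 candidates. Likeness was the Euclidean distance between centred log2 CPM profiles, which was 1.52 for Sprr3, 2.90 for Ccl20, 3.01 for Rarb, 3.29 for Kit and 4.05 for Ptn. This distance depends strongly on the size of the NRRA rise, by which Ogn was chosen, so the list holds strong risers. Their log2 changes in Stra8KO ran from 4.64 (Ptn) to 8.37 (Sprr3), and nearness is only a description. Rarb encodes a retinoic acid receptor and Kit a receptor of differentiating spermatogonia. Counts of Sprr3 in Stra8KO went from 0 and 2 with Veh to 348 and 394 with NRRA. Kit had more counts in Spo11KO NRRA (8395 and 9925) than in Stra8KO NRRA (3752 and 3758), where Ogn had the opposite order. Aspn was at place 20, at a distance of 5.27. With Pearson correlation as the measure, 1 of the 5 nearest genes was shared (Ptn), and 25 genes had r over 0.99.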

How the data were processed

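Poly(A) RNA was sequenced in 8 libraries, and the authors deposited raw read counts per gene, whole numbers that were not normalized. Per the submitters' processing notes, bcl2fastq, STAR 2.6.1c, featureCounts 1.6.4 and mm10 were used. The annotation, strand setting and treatment of reads matching several places are not given in the sources used here. Paralogs may share reads where their sequences match.

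These counts went into edgeR 4.0.16 (R 4.3.3). Of 55421 genes, 20588 passed filterByExpr. After TMM scaling, a single model with 1 mean per group covered the 8 libraries, tested by robust quasi-likelihood F tests, two-sided, with Benjamini-Hochberg adjustment over all tested genes. SE is the absolute log2 change divided by the square root of F. For large changes from low counts, such as that of Ogn, it can understate the error of the estimate. The study's methods name DESeq2, run here as an alternative (DESeq2 1.42.0). Log2 CPM used a prior count of 2. Totals of 20960794 to 27038868 counts set the precision, and low genes such as Omd are the least certain. Libraries of a group differed by more than sampling noise (median chi-square per gene 0.741 to 0.973) and were counted separately. That difference does not show that they came from independent cultures. The tests measure the spread between libraries of a group, which may be smaller than the spread between independent cultures. The study calls its sequencing replicates biological and independent, and whether the cultures of a group were derived separately is not given in the sources used here.

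The members and lists were chosen with earlier results of these data known. Named were the members, other genes of the leucine-rich family, chromosome neighbours, the 5 genes most like Ogn at a mean log2 CPM of 1 or more, and genes of the chain, partner and proteoglycan lists called with NRRA at a log2 change of at least 1 in size, of which examples are printed. Promoter sequences came from RefSeq (GRCm38.p6), and positions and exon lengths from GENCODE M21. Alternatives were other scalings, filters and tests, the libraries compared alone, a fold minimum of 2, a replicate block and leaving out each library.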

Additional observations from a re-analysis of the deposited data

Results flagged for a closer look

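The fall of Lum with NRRA was called different between genotypes. Its log2 change in Stra8KO minus that in the libraries labelled Spo11KO was -0.21 (SE 0.0607, adjusted p = 0.00682 by the edgeR interaction test). Of all tested genes, 10.3% were called lower in that test. Each of the 4 NRRA libraries was below both Veh libraries of its genotype, which describes the fall and not its difference between genotypes. The call was lost when either of 2 libraries was left out, as given with the comparison.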

How the results depend on the processing

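Rises of Aspn, Prelp and Fmod and the fall of Lum with NRRA kept their direction under each alternative run. With NRRA in Stra8KO, 2 paralogs were lower instead of 1 with DESeq2 size factors, total counts, fibroblast marker scaling, the DESeq2 test and only the 4 libraries compared, and 0 at a fold of at least 2, where all genes numbered 1434 higher and 734 lower. In Spo11KO 2 were lower with fibroblast scaling and 0 at a fold of at least 2 (1402 and 1137 of all genes), and Bgn turned to 0.039 with total counts. Between genotypes in Veh, fibroblast scaling left 3 members higher, with 474 genes higher and 15260 lower in all, and turned Ogn to -0.29. No filter, the DESeq2 test, only 4 libraries and a fold of at least 2 left 0 members lower, the last with 1915 and 1421 of all genes. In NRRA, 1 member was lower with total counts, fibroblast scaling gave 1 higher and 2 lower (734 and 14840 of all genes), and a fold of at least 2 gave 3 higher (2262 and 1557 of all genes). Fibroblast scaling, which moves the median of all genes to -0.99 in Veh and -0.91 in NRRA, turned Dcn to -0.040, Lum to -0.085, Fmod to -0.12 and Aspn to -0.96. Aspn was also at -1.434e-04 with size factors, -0.19 with total counts (where the median of all genes was -0.14), -0.033 without the filter and -0.052 with 4 libraries. For the interaction, 4 paralogs were lower with total counts (3473 of all genes), 2 without the filter and 0 at a fold of at least 2 (804 higher and 371 lower of all genes), and the DESeq2 test called 2002 genes higher. Omd turned to -0.029 with size factors, -0.092 with total counts, -0.059 without the filter and -0.037 with the DESeq2 test. The cause was not tested, beyond the scaling itself.

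Leaving out 1 library at a time gave 1 to 2 paralogs lower with NRRA in each genotype, 0 to 1 members lower between genotypes in Veh, and 0 to 2 paralogs lower and 0 to 1 higher in the interaction. Between genotypes in NRRA, Omd ranged from -0.59 to 0.080 and Aspn from -0.077 to 0.11, and in the interaction Omd ranged from -0.38 to 0.29 and Bgn from -0.046 to 0.0066. Where a group was left with 1 library, that library was assumed to vary like the others. The replicate numbers did not pair the samples (correlations of deviations from -0.027 to 0.056). A replicate block changed no count of members called, with 4422 genes higher and 4120 lower with NRRA in Stra8KO, and turned the Omd interaction to -0.0057. With Pearson correlation, 1 of the 5 genes most like Ogn was shared.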
